A study of Rattus norvegicus with 9 samples.

Results

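The genes described here remodel or decorate the matrix of the artery wall. They comprise 5 matricellular or adhesive matrix proteins (Thbs1, Postn, Tnc, Ccn2 and Fn1), 3 matrix metalloproteinases (Mmp2, Mmp14 and Mmp9) and 2 tissue inhibitors of metalloproteinases (Timp1 and Timp3). They were chosen by symbol, and all 10 were found, each on 1 line, among 30452 features. Poly(A) RNA was sequenced from arteries of rat offspring aged 3 to 5 months whose dams ate a standard diet in pregnancy. The controls, whose dams drank ordinary water, gave 3 mesenteric libraries (replicates 1, 2 and 3) and 3 pulmonary libraries (replicates 1, 2 and 4). Mesenteric artery of the high-sucrose group (replicates 1, 2 and 3) came from dams given 20% sucrose water. For strain and sex, the sources used here give nothing, and pulmonary artery of the high-sucrose group was not analysed here.

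Matricellular proteins are secreted into the matrix but act mainly as signals to cells rather than as scaffold, and many are made during development and after injury. Metalloproteinases cut matrix and surface proteins, and the inhibitors block them by binding the catalytic zinc site. In arteries, smooth muscle cells, adventitial fibroblasts and endothelium all make members of these families, and their balance is known for its part in wall stiffness and remodeling.

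Total counts per library ran from 10388231 to 15420546, and levels are given as CPM, counts scaled to a common library total after TMM adjustment. Transcript lengths were not used, so no order of level between genes is read. Acta2 and Myh11, the actin and myosin of smooth muscle, were present in all 9 libraries, but the sum of 12 smooth muscle genes ran from 4446 CPM in pulmonary replicate 4 to 51071 CPM in mesenteric control replicate 1. All 11 lymphocyte and all 9 lung epithelium markers found peaked in pulmonary replicate 4, and all 11 cardiac muscle markers found peaked in pulmonary replicate 2. Mesenteric control replicate 2 had the lowest smooth muscle sum of the mesenteric libraries (15405 CPM) and the highest sum of 14 fibroblast genes of all libraries (21540 CPM). In such bulk samples, fewer cells of a type and less RNA per cell cannot be told apart.

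**Figure D1:**
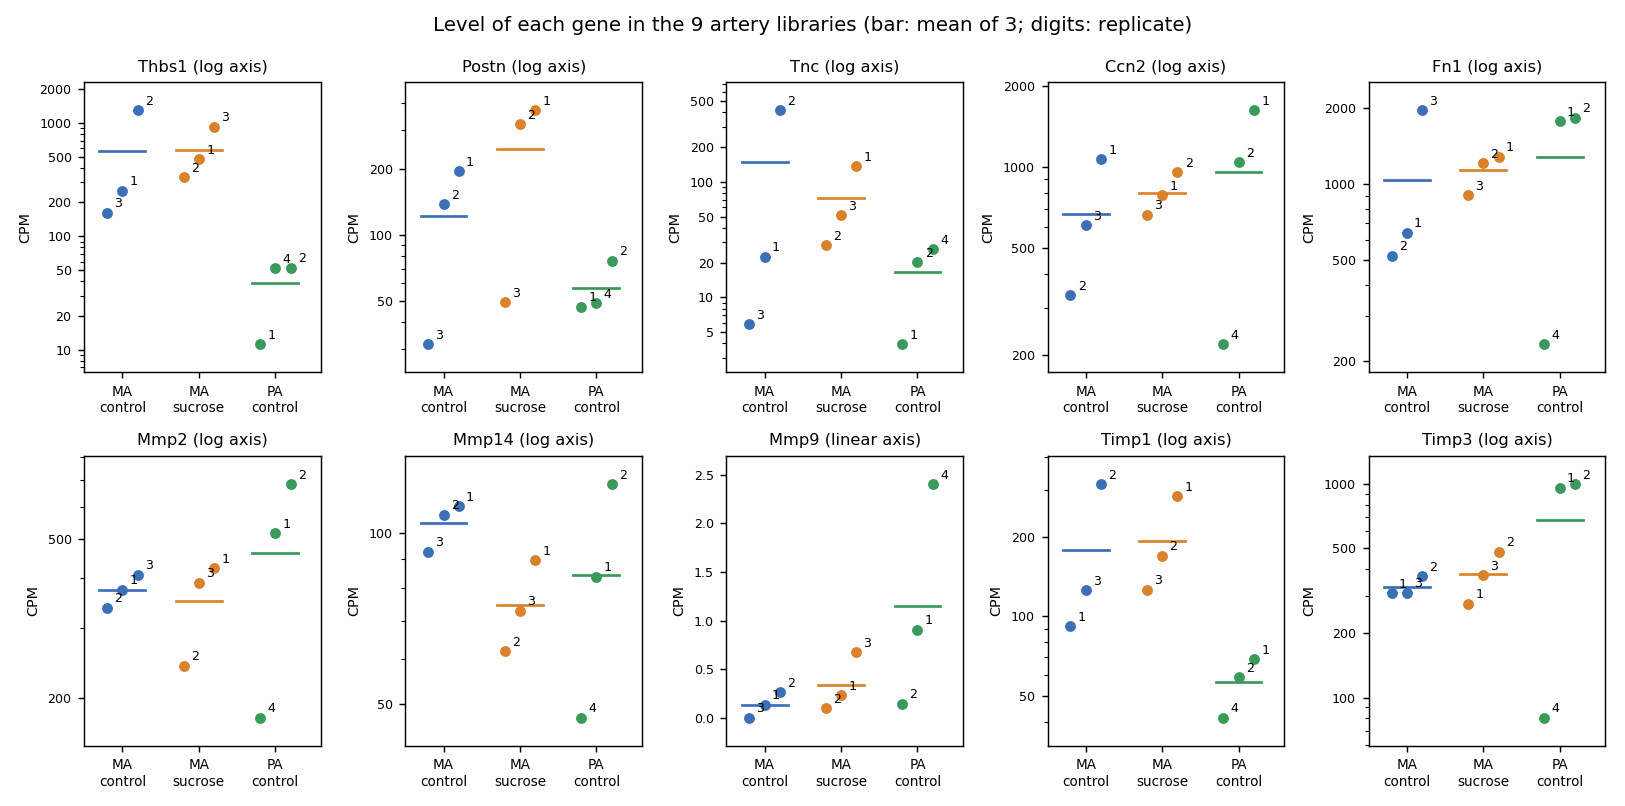
Level of each of the 10 genes in CPM (vertical axis, log scale except for Mmp9) in mesenteric artery (MA) of control and sucrose offspring and pulmonary artery (PA) of control offspring, with 1 point per library, its replicate number beside it and a bar at the mean of 3. Thbs1 and Timp1 lay lower in all 3 pulmonary libraries than in any mesenteric one, and pulmonary replicate 4 was the lowest library for 6 of the 10 genes.

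RefSeq promoter entries (build GRCr8, matched by symbol) were at hand for 6 of the 10 genes, Thbs1, Postn, Tnc, Ccn2, Timp1 and Timp3. The windows of Thbs1, Ccn2 and Timp3 are shown because Thbs1 lay below, and Ccn2 and Timp3 above, all 6 mesenteric libraries in pulmonary replicate 1, and because their windows lie outside the annotated gene. Each is the 250 bases before the annotated start, 5′ to 3′ on the gene's strand. Capitals mark matches on either strand to TGANTCA (AP-1), GGAATG (TEAD), CAGAC (SMAD), GGGCGG (GC box), TATAAA (a core promoter box) and the CArG box, searched by name.
Thbs1, chr3:125510000-125510249, plus strand: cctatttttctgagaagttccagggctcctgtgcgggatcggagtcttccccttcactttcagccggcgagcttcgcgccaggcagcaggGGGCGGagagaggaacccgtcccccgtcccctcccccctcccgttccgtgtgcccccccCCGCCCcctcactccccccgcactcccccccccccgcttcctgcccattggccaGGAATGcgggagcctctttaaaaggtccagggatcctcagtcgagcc
Ccn2, chr1:22624615-22624864, minus strand: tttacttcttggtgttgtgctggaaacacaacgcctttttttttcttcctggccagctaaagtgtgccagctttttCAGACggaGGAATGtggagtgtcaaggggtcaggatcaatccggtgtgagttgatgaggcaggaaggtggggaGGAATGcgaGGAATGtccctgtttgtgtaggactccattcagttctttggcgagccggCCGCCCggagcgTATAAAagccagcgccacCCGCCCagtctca
Timp3, chr7:19459559-19459808, minus strand: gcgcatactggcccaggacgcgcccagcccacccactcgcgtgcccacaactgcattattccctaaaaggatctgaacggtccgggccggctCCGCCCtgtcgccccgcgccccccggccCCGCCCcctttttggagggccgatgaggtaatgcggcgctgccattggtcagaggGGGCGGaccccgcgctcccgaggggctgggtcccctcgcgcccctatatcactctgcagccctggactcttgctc
The Ccn2 window held 3 GGAATG matches, the Thbs1 window 1 and the Timp3 window 0, and 12.1% of 33469 promoter windows of this length held at least 1. GGGCGG was found 2 times in the Thbs1 window, 2 times in that of Ccn2 and 3 times in that of Timp3 (30.5% of all windows), and TATAAA and CAGAC once each in that of Ccn2 alone among the 3 (12.9% and 42.9% of all windows). None of the 6 windows held TGANTCA or a CArG box. A match describes these letters and not a bound site.

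Thbs1 encodes thrombospondin 1, a secreted glycoprotein that binds the receptors CD47 and CD36 and activates latent TGF-beta. It was at 253, 1298 and 162 CPM in mesenteric control replicates 1, 2 and 3 and at 482, 334 and 932 CPM in the sucrose replicates 1, 2 and 3. In pulmonary replicates 1, 2 and 4 it was at 11.2, 52.7 and 52.2 CPM. Every pulmonary library thus lay below every mesenteric library, while the mesenteric groups overlapped. The mean was 14.8-fold lower in pulmonary than in mesenteric control artery, and the log2 fold change was −3.89 ± 1.04 (SE, n = 3 per group, edgeR adjusted p = 0.420). DESeq2 called the gene with an adjusted p of 0.00151, limma-voom with quality weights did not (adjusted p = 0.210), and over all alternatives the adjusted p ran from 0.00151 to 0.784.

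The size of the Thbs1 difference rested in part on mesenteric control replicate 2, without which the log2 fold change was −2.43 (adjusted p = 0.692 by edgeR). Without pulmonary replicate 4 it was −4.16, and it was −5.68 when pulmonary replicates 2 and 4 were both left out. The sum of 17 immediate early genes, which respond within minutes to stimuli such as dissection, was 1279 to 1886 CPM in the pulmonary, 3531 to 13398 CPM in the mesenteric control and 2434 to 13134 CPM in the sucrose libraries. The sum of the fibroblast genes was also lower in every pulmonary library (2549 to 12006 CPM) than in every mesenteric control (13289 to 21540 CPM). Of the 14 genes, 5 lay lower without overlap, beside 7.57% of all genes tested. Pdgfra and Dcn overlapped, with Dcn at 4276, 3238 and 379 CPM in pulmonary replicates 1, 2 and 4. In mesenteric control replicates 1, 2 and 3, Dcn was at 3652, 9343 and 2880 CPM. In the sucrose libraries the fibroblast sum was 9540 to 14005 CPM, overlapping the pulmonary range, with Thbs1 at 334 to 932 CPM. Mesenteric control replicate 2 had the highest fibroblast sum (21540 CPM) and the highest Thbs1 (1298 CPM) of all libraries. The sum of the 11 cardiac muscle genes was 1080.5 to 24200 CPM in the pulmonary and 34.5 to 111 CPM in the 6 mesenteric libraries. In pulmonary replicate 1, which had the lowest pulmonary sum, the cardiac myosin gene Myh6 was at 2.64 CPM. That was below its 2.78 to 9.35 CPM in the mesenteric libraries. Among the mesenteric controls, replicate 3 had the highest immediate early sum and the lowest Thbs1. Among the sucrose libraries, replicate 3 had the highest of both (13134 and 932 CPM). Over the 9 libraries, the Pearson correlation of Thbs1 was 0.57 with the immediate early, 0.49 with the fibroblast and −0.76 with the cardiac muscle sum. It was 0.60 with the endothelium, −0.57 with the mesothelium and −0.54 with the cartilage sum. Of 9 endothelium genes, 8 had a log2 fold change below 0 in pulmonary against mesenteric control artery. Of these 9, 4 lay lower without overlap, beside 7.57% of all genes tested. The part of these lists in the Thbs1 difference was not tested.

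Tnc encodes tenascin C, a large matrix glycoprotein that is scarce in resting adult artery and made at sites of injury. Its level was 22.5, 415 and 5.84 CPM in mesenteric control replicates 1, 2 and 3, a 70.9-fold range within 1 group. The sucrose replicates 1, 2 and 3 were at 137, 28.4 and 51.3 CPM, and pulmonary replicates 1, 2 and 4 at 3.96, 20.2 and 26.0 CPM. Tnc, Thbs1 and Timp1 all peaked in mesenteric control replicate 2, which was also the lowest of the 6 mesenteric libraries for Ccn2. The log2 fold change between pulmonary and mesenteric control artery was −3.15 ± 1.57 (SE, edgeR adjusted p = 0.610), and it was 0.23 without mesenteric control replicate 2. Between the sucrose and control mesenteric groups it was −1.03 ± 1.37 (adjusted p = 1.00 by edgeR), and it turned to 2.34 without the same library. No direction can therefore be given for Tnc in either comparison.

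Postn encodes periostin, a matricellular protein of fibroblasts and valve cells that helps cross-link collagen. It was at 195, 138 and 31.7 CPM in mesenteric control replicates 1, 2 and 3 and at 370, 321 and 49.4 CPM in the sucrose replicates 1, 2 and 3. The lowest library of either mesenteric group was the one numbered 3, and those 2 libraries also had the highest immediate early sums (13398 and 13134 CPM). That relation was not tested. Pulmonary replicates 1, 2 and 4 lay close together, at 47.1, 76.2 and 48.6 CPM, and within the mesenteric control range. The log2 fold change was 1.02 ± 0.84 (SE) in the sucrose group (adjusted p = 1.00 by edgeR), 0.57 without mesenteric control replicate 3 and 1.54 without replicate 1. In pulmonary artery it was −1.09 ± 0.62 (adjusted p = 0.644 by edgeR), and −0.59 without mesenteric control replicate 1.

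Ccn2, formerly connective tissue growth factor, is a matricellular protein whose gene is a common readout of TGF-beta and of YAP with its partner TEAD. It was at 1068, 334 and 610 CPM in mesenteric control replicates 1, 2 and 3 and at 788, 956 and 667 CPM in the sucrose replicates. Pulmonary replicates 1 and 2 were at 1626 and 1042 CPM, and replicate 4 was at 220 CPM, the lowest of the 9 libraries. The groups overlapped in both comparisons, with a log2 fold change of 0.26 ± 0.42 (SE) for sucrose (adjusted p = 1.00 by edgeR) and 0.51 ± 0.76 for pulmonary artery (adjusted p = 0.855 by edgeR). The pulmonary value was 0.99 without pulmonary replicate 4 and −0.10 without replicate 1. The order of Thbs1 and Ccn2 was thus opposite in pulmonary replicate 1, which was the lowest of the 9 libraries for Thbs1 and the highest for Ccn2.

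Fn1 encodes fibronectin, the adhesive glycoprotein on which other matrix proteins assemble and which integrins bind. It was at 643, 521 and 1964 CPM in mesenteric control replicates 1, 2 and 3 and at 1289, 1210 and 908 CPM in the sucrose replicates. Pulmonary replicates 1, 2 and 4 were at 1780, 1833 and 233 CPM. The highest library of all was thus a mesenteric control and the lowest a pulmonary one, and the groups overlapped. The log2 fold change was 0.13 ± 0.51 (SE) for sucrose (adjusted p = 1.00 by edgeR), 0.96 without mesenteric control replicate 3, −0.13 without replicate 1 and −0.20 without replicate 2. For pulmonary artery it was 0.28 ± 0.86 (adjusted p = 0.935 by edgeR), 1.12 without mesenteric control replicate 3 and 0.79 without pulmonary replicate 4. It turned to −0.0417 without mesenteric control replicate 2, −0.0247 without pulmonary replicate 1 and −0.0633 without pulmonary replicate 2, so no direction can be given for Fn1 in either comparison.

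**Figure D2:**
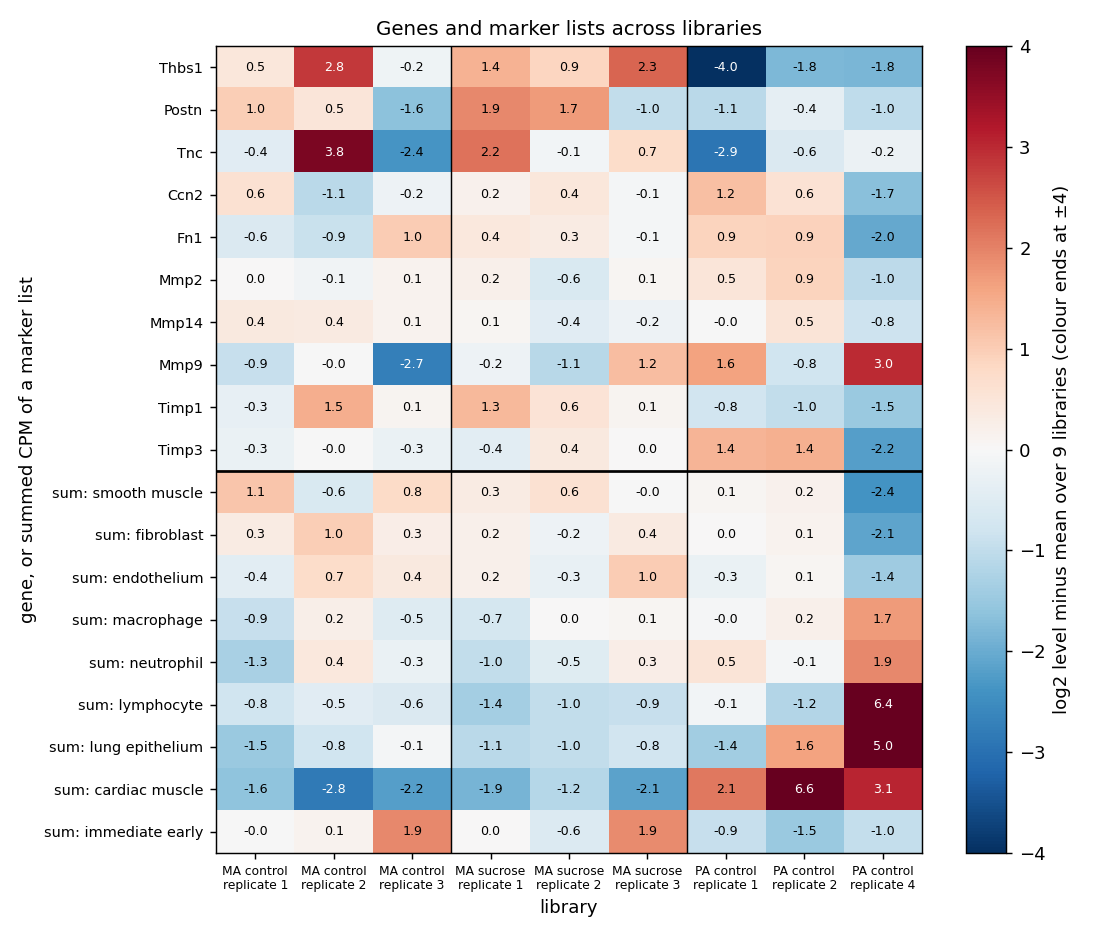
Log2 level of each gene, and of the summed CPM of 9 marker lists below the line, minus its mean over the 9 libraries (columns), red for above and blue for below the mean; colors end at ±4. The Thbs1 row is below its mean in all 3 pulmonary libraries, and the pulmonary replicate 4 column is below the mean for every gene shown except Mmp9 and for the smooth muscle, fibroblast and endothelium sums.

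Among the metalloproteinases, Mmp2 encodes gelatinase A, which cuts denatured collagen and basement membrane. It was at 374, 337 and 407 CPM in mesenteric control replicates 1, 2 and 3, at 422, 241 and 388 CPM in the sucrose replicates, and at 516, 684 and 179 CPM in pulmonary replicates 1, 2 and 4. The log2 fold change was −0.09 ± 0.25 (SE) for sucrose (adjusted p = 1.00 by edgeR) and 0.29 ± 0.49 for pulmonary artery (adjusted p = 0.875 by edgeR). Both directions depended on 1 library, with 0.13 for sucrose without sucrose replicate 2 and −0.11 for pulmonary artery without pulmonary replicate 2. Pulmonary replicates 1 and 2 lay above all 6 mesenteric libraries and pulmonary replicate 4 below them, and the pulmonary value without replicate 4 was 0.68 (adjusted p = 0.408 by edgeR).

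Mmp14 encodes a membrane-bound metalloproteinase that activates the Mmp2 proenzyme at the cell surface. It was at 111, 108 and 92.7 CPM in mesenteric control replicates 1, 2 and 3 and at 89.5, 61.9 and 73.0 CPM in the sucrose replicates, so that all 3 sucrose libraries were lower. The log2 fold change was −0.47 ± 0.19 (SE), and the edgeR p was 0.0410 unadjusted and 1.00 adjusted. Mmp14 was the only 1 of the 9 genes tested in that comparison whose groups did not overlap, beside 6.10% of all genes tested (3.26% lower). It was also the only 1 at an unadjusted p under 0.05, beside 1.99% of all genes tested (1.13% lower). The groups met when plain library totals were used (89.7 to 113 CPM against 62.5 to 94.8 CPM) or when mitochondrial genes were left out of the totals. Of the 14 fibroblast markers, 13 also had a log2 fold change below 0 in the sucrose group and 5 lay lower without overlap, and 0 passed; their part in the Mmp14 difference was not tested. In pulmonary replicates 1, 2 and 4 Mmp14 was at 83.8, 122 and 47.3 CPM, on both sides of the mesenteric controls (log2 fold change −0.31 ± 0.35, adjusted p = 0.807 by edgeR). That value was −0.68 without pulmonary replicate 2 and −0.02 without replicate 4.

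Over the 9 libraries, deviations of Mmp2 and Mmp14 from their group means had a Pearson correlation of 0.93, given as a description of libraries that share depth and tissue makeup. The count of Mmp14 per count of Mmp2, which no scaling of totals can move, was 0.298, 0.320 and 0.228 in the mesenteric controls, 0.212, 0.257 and 0.188 in the sucrose libraries and 0.162, 0.178 and 0.264 in the pulmonary libraries. These ranges overlapped.

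Mmp9 encodes gelatinase B, which neutrophils and macrophages release in inflammation. It had 2, 3 and 0 counts in mesenteric control replicates 1, 2 and 3, 3, 1 and 7 counts in the sucrose replicates, and 11, 2 and 37 counts in pulmonary replicates 1, 2 and 4. The count of 0 allows up to 3 counts, or 0.278 CPM, in that library (counting error only). With so few counts the gene did not enter either main edgeR fit, so 9 of the 10 genes were tested there. DESeq2 did test it, with a log2 fold change of 3.12 for pulmonary artery (adjusted p = 0.365) and 1.32 for sucrose (adjusted p = 0.9998). In the edgeR fits with 1 library left out that it entered, the pulmonary value ran from 2.53 to 3.82. The highest level, 2.40 CPM in pulmonary replicate 4, stood in the library with the highest sums of 11 neutrophil markers (107 CPM against at most 40.7 CPM elsewhere) and of 12 macrophage markers (1871 CPM against at most 677 CPM). Of the 11 neutrophil markers, 4 peaked in that library and 5 in pulmonary replicate 1. The neutrophil marker S100a9 was at 8.90 CPM in pulmonary replicate 4 and at 14.8 CPM in pulmonary replicate 1. Of the 12 macrophage markers, 6 peaked in pulmonary replicate 4. The macrophage sum was 559 CPM in pulmonary replicate 1 and 666 CPM in replicate 2. Pulmonary replicate 4 also had the highest lymphocyte sum (1726 CPM against at most 19.7 CPM) and mesothelium sum (258 CPM against at most 114 CPM). Over the 9 libraries, the Pearson correlation of Mmp9 was 0.82 with the mesothelium, 0.74 with the neutrophil, 0.71 with the macrophage and 0.68 with the lymphocyte sum. The part of these cell types in the Mmp9 count was not tested.

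Of the inhibitors, Timp1 is a secreted protein that is induced in inflammation and fibrosis. It was at 91.7, 317 and 125 CPM in mesenteric control replicates 1, 2 and 3 and at 285, 170 and 126 CPM in the sucrose replicates. In pulmonary replicates 1, 2 and 4 it was at 68.7, 58.9 and 41.4 CPM, below all 6 mesenteric libraries. The mean was 3.18-fold lower than in mesenteric control, and the log2 fold change was −1.67 ± 0.51 (SE; adjusted p = 0.476 by edgeR, 0.0800 by DESeq2). Of the sums given beside Thbs1, that of cardiac muscle was higher in the pulmonary than in all 6 mesenteric libraries. Myh6 was an exception in pulmonary replicate 1. The immediate early sum was lower in the pulmonary (1279 to 1886 CPM) than in all 6 mesenteric libraries (2434 to 13398 CPM). The fibroblast sum was lower in the pulmonary libraries than in the mesenteric controls, while Pdgfra and Dcn overlapped. Sucrose replicate 2, however, with a fibroblast sum of 9540 CPM, lay below pulmonary replicates 1 and 2 and had Timp1 at 170 CPM. Mesenteric control replicate 2 had the highest fibroblast sum and the highest Timp1. Over the 9 libraries, the Pearson correlation of Timp1 was −0.77 with the cardiac muscle, 0.41 with the immediate early and 0.67 with the fibroblast sum. It was 0.64 with the endothelium and −0.64 with the lung epithelium sum. The part of these lists in the Timp1 difference was not tested. The log2 fold change was −0.96 without mesenteric control replicate 2 and −1.48 without pulmonary replicate 4. Between the mesenteric groups the log2 fold change was 0.12 ± 0.51 (adjusted p = 1.00 by edgeR), and 0.84 without mesenteric control replicate 2.

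Timp3 is an inhibitor that stays bound to the matrix and also acts on ADAM proteases. It was at 307, 369 and 309 CPM in mesenteric control replicates 1, 2 and 3, at 275, 482 and 375 CPM in the sucrose replicates and at 960, 997 and 80.5 CPM in pulmonary replicates 1, 2 and 4. Pulmonary replicates 1 and 2 lay above all 6 mesenteric libraries and replicate 4 below all of them. The log2 fold change for pulmonary artery was 1.03 ± 0.82 (SE, adjusted p = 0.734 by edgeR). Without pulmonary replicate 4 it was 1.57, where the edgeR p was 0.000591 unadjusted and 0.100 adjusted, and without replicate 2 it was 0.65. For sucrose it was 0.20 ± 0.25 (adjusted p = 1.00 by edgeR).

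The ratio of the inhibitors differed between libraries. The count of Timp1 per count of Timp3 was 0.0716 and 0.0591 in pulmonary replicates 1 and 2, against 0.299 to 0.858 in the mesenteric controls and 0.337 to 1.03 in the sucrose libraries. Pulmonary replicate 4, at 0.514, lay within the mesenteric range. The count of Mmp2 per count of Timp1 was 7.51, 11.6 and 4.33 in pulmonary replicates 1, 2 and 4 and 4.07, 1.06 and 3.25 in mesenteric control replicates 1, 2 and 3, with 1.42 to 3.08 in the sucrose libraries. The 3 pulmonary values were the highest of the 9, by a narrow margin in replicate 4. These ratios were chosen after values were seen and were not tested.

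**Figure D3:**
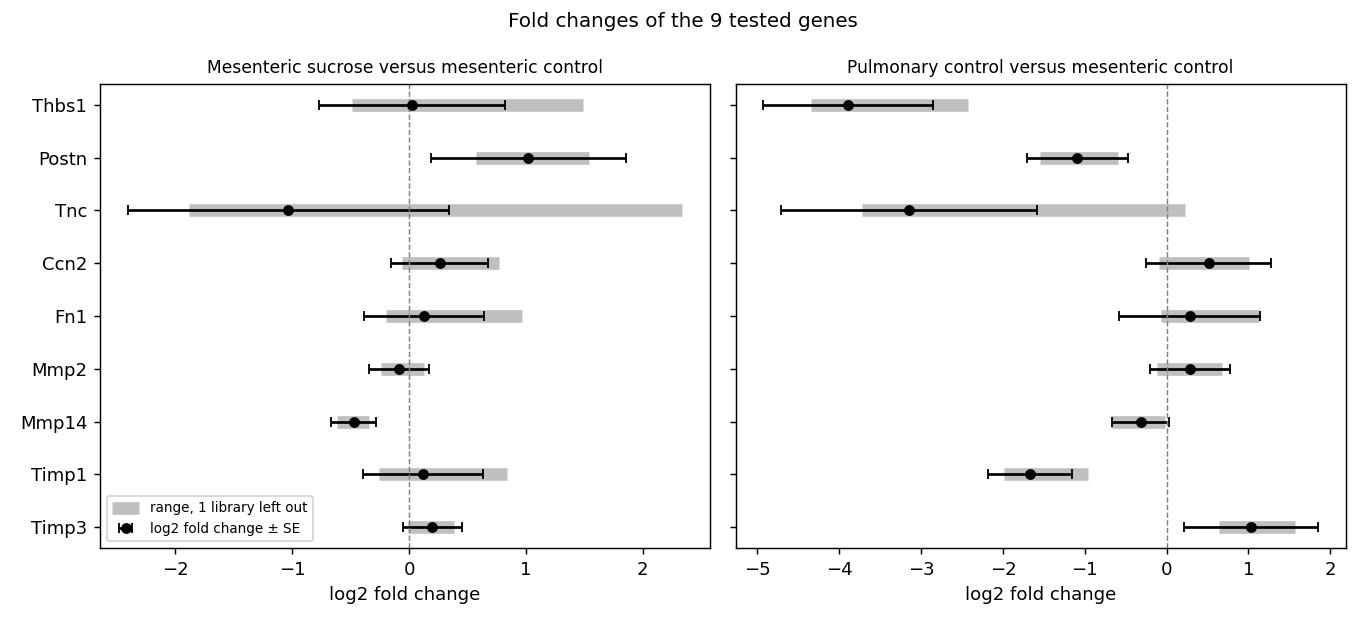
Log2 fold change (horizontal axis) of the 9 tested genes for sucrose against control mesenteric artery (left) and pulmonary against mesenteric control artery (right), with black bars for the standard error and gray bars for the range when 1 library is left out. Thbs1, Postn, Timp1 and Mmp14 kept a negative value in the right panel whichever library was left out, while the Tnc bar crosses 0 in both panels.

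In the comparison of the mesenteric groups, 0 of the 9 genes tested passed with edgeR, and 0 of all 13995 genes passed (0% of all genes tested). At an unadjusted p under 0.05 there was 1 of the 9, and DESeq2, which called 0.0133% of all genes, and limma-voom, which called 0%, also called 0 of these genes. Log2 fold changes were above 0 for 6 of the 9 (50.3% of all genes tested) and over 1 in size for 2 of the 9, Postn and Tnc (2.52% of all genes tested). In the comparison of pulmonary with mesenteric control artery, 0 of the 9 passed with edgeR, where 0.0140% of all 14315 genes tested passed. At an unadjusted p under 0.05 there were 2 of the 9, Thbs1 and Timp1, both lower, beside 8.53% of all genes tested (4.30% lower). The same pair were the genes whose groups did not overlap, beside 14.1% of all genes tested (7.57% lower), and this held on plain totals and on totals without mitochondrial genes. Log2 fold changes were above 0 for 4 of the 9 (54.5% of all genes tested) and over 1 in size for 5 of the 9 (17.2%). DESeq2 called 1 of 10, Thbs1, where it called 3.10% of all genes, and limma-voom called 0, where it called 0.231%. The comparisons share the mesenteric controls and are not independent.

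The libraries of a group were further apart for most of these genes than for a typical gene. Within the mesenteric controls the SD of log2 CPM was 3.14 for Tnc, above 99.6% of 14622 genes with a mean of at least 1 CPM, 1.58 for Thbs1 (96.0%) and 1.39 for Postn (94.3%), where the median gene had 0.33. Mmp2, Mmp14 and Timp3 lay at the other end there, with 0.14, 0.14 and 0.15. In the sucrose group the SD was 1.62 for Postn, 1.15 for Tnc and 0.75 for Thbs1, and 0.26 to 0.27 for Ccn2, Fn1 and Mmp14, with a median gene at 0.32. In pulmonary artery the order was different. Timp3 had the highest SD of the 10, 2.08, and Timp1 and Postn the lowest, 0.38 and 0.39, below the median gene at 0.57.

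**Figure D4:**
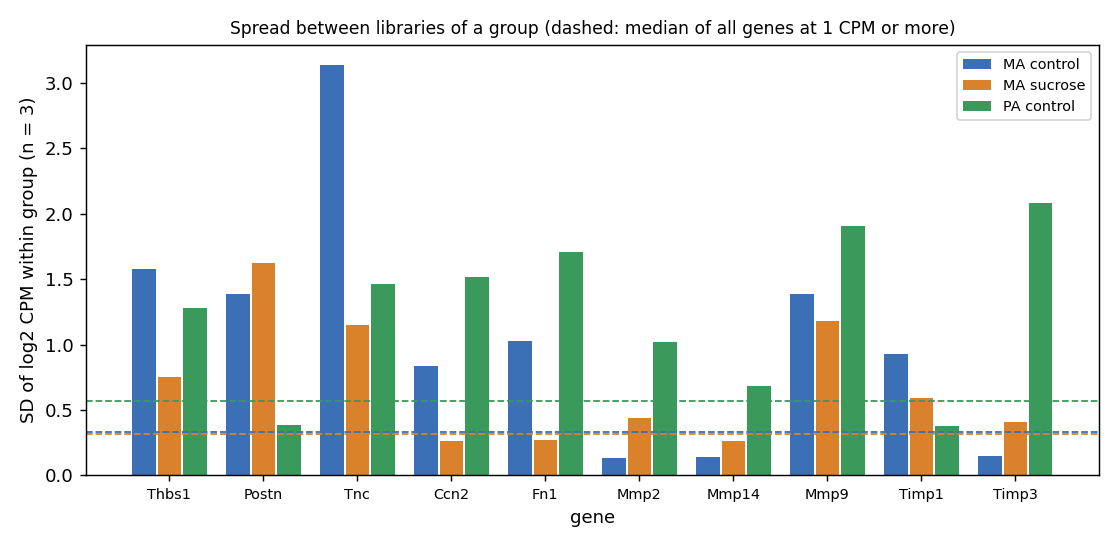
Standard deviation of log2 CPM over the 3 libraries of each group (bars, vertical axis from 0) for the 10 genes, with dashed lines at the median of all genes with a mean of at least 1 CPM. Tnc in the mesenteric controls reaches 3.14, while Mmp2, Mmp14 and Timp3 lie under the dashed line in that group and above it in pulmonary artery.

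Of 122 other genes on 6 lists of the same pathways, 119 were found by symbol. Between the mesenteric groups, 0 passed with edgeR in any list, and the medians of the log2 fold change ran from −0.09 to 0.09, with 0.00 for all genes tested. The genes with the smallest p included Spon2, which encodes the secreted matrix protein spondin 2. Control offspring had 82.1 ± 19.8 CPM of it and sucrose offspring 32.4 ± 19.5 CPM, here scaled over the 6 libraries compared (SD, n = 3 per group, log2 fold change −1.34, adjusted p = 1.00 by edgeR). Itga5, the integrin subunit that pairs with Itgb1 as the main fibronectin receptor, had 163 ± 17.7 CPM in the controls and 367 ± 166 CPM in the sucrose group (log2 fold change 1.17, adjusted p = 1.00 by edgeR). Both lay without overlap between the groups, as did Lgals1, Serpinf1 and Lrp1, the endocytic receptor that clears metalloproteinases and thrombospondins (log2 fold change 0.37). These were 2 of 22 tested other matricellular genes, 1 of 13 other inhibitor and plasminogen genes and 2 of 21 matrix receptors. The lists of other metalloproteinases (23 tested), TGF-beta latency and response (16) and YAP and SRF response (14) had 0. Of all genes tested, 6.10% did not overlap.

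Between pulmonary and mesenteric control artery, 1 of the 22 tested genes on the list of other matricellular proteins passed, Spon2, which fell by 4.19 on the log2 scale (adjusted p = 0.0226 by edgeR), and the list median was −0.43 against 0.06 for all genes tested. At an unadjusted p under 0.05, 3 of the 22 were higher and 7 lower, beside 8.53% of all genes tested in either direction. On the lists of other metalloproteinases (26 tested), other inhibitors and the plasminogen system (13), matrix receptors (21), TGF-beta latency and response (16) and YAP and SRF response (14), 0 passed, with 6, 2, 2, 0 and 2 genes at an unadjusted p under 0.05, to be read against the same 8.53%. Their medians were −0.24, −0.53, −0.08, −0.01 and −0.36. Plau, the urokinase that turns plasminogen into plasmin, stood at 132 ± 103 CPM in the mesenteric and 11.7 ± 4.05 CPM in the pulmonary controls (log2 fold change −3.49, adjusted p = 0.195 by edgeR). Adamts4, an aggrecan-cutting protease, had a log2 fold change of −2.88 (32.0 ± 29.2 CPM in mesenteric and 4.34 ± 1.06 CPM in pulmonary controls, adjusted p = 0.398 by edgeR). For Tfpi2, an inhibitor of plasmin, it was −3.73 (22.0 ± 23.2 and 1.65 ± 0.79 CPM, adjusted p = 0.3925 by edgeR). In the other direction, Mmp15, a membrane-bound metalloproteinase, had a log2 fold change of 2.98 (adjusted p = 0.443 by edgeR). Ankrd1, a YAP target that heart muscle also makes, had means of 19.1 CPM in the mesenteric and 1374 CPM in the pulmonary controls (log2 fold change 6.17 ± 2.12, SE, adjusted p = 0.520 by edgeR). Mmp15 and Ankrd1 both overlapped between the groups. Ccn1, another member of the CCN family, was at 881 ± 248 and 331 ± 202 CPM (log2 fold change −1.41, adjusted p = 0.538 by edgeR), without overlap between the groups, while Ccn2 had a positive value there. Ltbp2, a latent TGF-beta binding protein of elastic fibers, and the collagen receptor Ddr1 lay higher in all 3 pulmonary libraries (1.94 and 1.12). On the same lists, Itga3, Itga1 and Tgfbr2 lay lower in all 3 (−1.18, −1.73 and −0.56), and none of these genes passed. Without overlap, 1 of the 21 matrix receptors lay higher and 3 lower. Of the 16 TGF-beta genes, 1 lay higher and 2 lower, beside 14.1% of all genes tested in either direction.

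The genes whose log2 CPM followed a member most closely over the 9 libraries were searched among 12559 named genes. The choice of the highest of so many coefficients makes them high, so they are a description of these libraries. They were Shroom2, Tdrd12 and Wscd1 for Thbs1 (Pearson 0.96 to 0.98), Tnfaip8l3, St6galnac2 and Plaur for Tnc (0.94 to 0.97) and Eno2, Sbds and Uhmk1 for Postn (0.87 to 0.89). For Ccn2 they were Specc1, Pkd2 and Irag1 (0.97 to 0.99), and for Fn1 Foxl1 and Id4 (both 0.96). Mmp2 was followed by Wnt9a, Znfx1 and Cacna1g (0.96 to 0.98), Mmp14 by Reep1, Sdf4 and Snx33 (0.93 to 0.94) and Mmp9 by Flt3, Mycl and Ttc30a (0.94 to 0.95). Timp1 was followed by Gfpt2, Frrs1 and Hsd3b7 (0.95 to 0.96) and Timp3 by Nfia, Fbxo4 and Map1b (0.97 to 0.99). Plaur, the urokinase receptor, was thus the single gene of the pathway lists among those named here.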

How the data were processed

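Each library came with 1 table of gene counts deposited by the authors, whole numbers without normalization. The genome build was rn7, per the submitters' processing notes. Aligner, counter, annotation and counted strand: not given in the sources used here. Therefore reads shared with a copy, an overlapping gene or an antisense transcript could not be told apart from those of a named gene. Each table held 30452 features, and 235 names stood on more than 1 line. All 9 tables were used.

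Tests used edgeR 4.0.16 under R 4.3.3 (quasi-likelihood F test), with TMM factors, filterByExpr and robust dispersion, on the 6 libraries of a comparison. Benjamini-Hochberg adjustment covered every gene in the fit, and the threshold was an adjusted p of 0.05. The standard error of a log2 fold change is its size divided by the square root of F. CPM are counts scaled to a common total, with TMM factors over all 9 libraries, and log2 CPM used a prior of 0.5 counts. Alternatives were median-ratio and upper quartile factors, no mitochondrial genes, DESeq2 1.42.0, limma-voom (limma 3.58.1) with quality weights, no filter or a stricter one, a single fit of the 9 libraries, a block for the replicate number, each library left out, and pulmonary replicate 1 alone. The edgeR test was checked on simulated counts.

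The 10 genes and all gene lists were chosen with earlier results of these data known. Text names the 10 genes, for each the 3 genes whose log2 CPM correlated best with it over 9 libraries (mean of at least 1 CPM; 1 such gene is not reported here), and from each pathway list the genes that passed or, where none did, up to 3 with the smallest p. Whether replicates were separate animals is not stated in the labels, so p-values reflect sample-to-sample spread that could be technical. A chi-square comparison of 2 libraries within a group gave 42.5 to 312 for each degree of freedom, so no library was counted as a repeat of another. The labels do not say whether replicate numbers pair the samples, and the main fits did not treat them as pairs. The check given with the alternatives cannot decide it, since its correlations rest on few libraries and differ in sign. Promoter sequences came from RefSeq (GRCr8) by symbol. RefSeq gene spans of that build served only to choose the windows printed.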

Additional observations from a re-analysis of the deposited data

How the results depend on the processing

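Between the mesenteric groups, 0 genes and 0 of the members passed under each of 14 of the 15 alternatives, and DESeq2 called 3 genes, none a member. Between pulmonary and mesenteric control artery, where edgeR called 2 genes, DESeq2 called 462, limma-voom 33, the fit of all 9 libraries 38, the replicate block 36 and pulmonary replicate 1 alone 0, and leaving out 1 library gave 0 to 22 (22 without pulmonary replicate 4). Members called there were 0 but for 1, Thbs1, with DESeq2 and 1, Thbs1, with the replicate block (log2 fold change −4.57, adjusted p = 0.0315 by edgeR). Whether same-numbered libraries are pairs could not be decided from these data. Their deviations correlated at 0.203, −0.294 and 0.111 between the mesenteric groups and at 0.173 and −0.173 between the control arteries. In the latter comparison the block leaves mesenteric replicate 3 and pulmonary replicate 4 without a partner.

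Some directions turned. For sucrose, Thbs1 turned to −0.0033 with upper quartile factors, and Tnc to 1.73 with limma-voom and 1.31 with the replicate block. With 1 library left out, the sucrose values ran from −0.49 to 1.49 for Thbs1, −1.89 to 2.34 for Tnc, −0.0614 to 0.77 for Ccn2, −0.20 to 0.96 for Fn1, −0.24 to 0.13 for Mmp2, −0.26 to 0.84 for Timp1 and −0.0063 to 0.39 for Timp3. The pulmonary values ran from −3.73 to 0.23 for Tnc, −0.10 to 1.01 for Ccn2, −0.0633 to 1.12 for Fn1 and −0.11 to 0.68 for Mmp2. Postn and Mmp14 in both comparisons, and Thbs1, Timp1 and Timp3 in pulmonary artery, kept their direction under every alternative run. Beyond the fits that left out libraries, the cause was not tested. Mmp9, with 0 to 37 counts, was the gene that depth limited most.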
